A study of Mus musculus with 17 samples.

Results

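The FOXO genes encode the class O forkhead transcription factors, and all 4 mouse members, Foxo1, Foxo3, Foxo4 and Foxo6, were measured. They were taken by symbol from a table of raw counts with 15062 genes, each member in 1 row, and all 4 passed the filter on low counts, which removed no gene. The table came from RNA sequencing of 17 libraries of C2C12 cells, a mouse myoblast line grown in medium with fetal bovine serum. Each line expressed, per the labels, the empty vector pMSCV (3 libraries), SRF (3), or a fusion of SRF with a partner: SRF-FOXO1 (3), SRF-ICA1L (3), SRF-PDGFRB (2) or SRF-RELA (3). SRF, serum response factor, is a DNA-binding transcription factor of muscle and growth-response genes, and the series belongs to a study of SRF fusion oncogenes in myoid soft tissue tumours. The controls thus carried the vector, and no parental C2C12 library entered the comparisons here. The labels do not say whether a line was 1 clone or a pool, nor whether the replicates were separate cultures, so the p-values measure the spread between these samples, which may be technical.

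FOXO proteins bind DNA through a forkhead domain and switch on genes of cell cycle arrest, stress resistance, autophagy and, in muscle, protein breakdown. Insulin and growth factors act through PI3K and AKT, which phosphorylate FOXO1, FOXO3 and FOXO4 so that they bind 14-3-3 proteins and leave the nucleus. FOXO6 lacks part of this control and stays largely nuclear. The activity of these proteins is thus set largely after translation, and the values below are levels of messenger RNA alone.

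Foxo1 (ENSMUSG00000044167) lies on chr3:52268336-52353221, plus strand, of GRCm38, and its 3 exons span 8.66 kb. Foxo3 (ENSMUSG00000048756) lies on chr10:42181841-42276755, minus strand, with 7 merged exons over 7.57 kb. Foxo4 (ENSMUSG00000042903) lies on chrX:101254528-101260873, plus strand, with 4 merged exons over 3.48 kb, and Foxo6 (ENSMUSG00000052135) on chr4:120267079-120287349, minus strand, with 2 exons over 2.62 kb. All are annotated as protein-coding in GENCODE M21. Of the 50-base windows of Foxo1 exons, 6.8% also occur in transcripts of other genes, mostly Gm20402, which overlaps a Foxo1 exon on the opposite strand; the exons of Foxo3, Foxo4 and Foxo6 share 0 windows.

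RefSeq promoters were at hand for Foxo1 and Foxo3, the pair of members whose levels moved together most closely across libraries, and are shown so that their motif content can be compared. The sequences run 5′ to 3′ on each gene's strand and end upstream of the annotated transcript. Capitals mark CCAAT and GGGCGG, found on either strand (ATTGG and CCGCCC are the reverse forms).
Foxo1, chr3:52268087-52268335 (GRCm38.p6, plus strand): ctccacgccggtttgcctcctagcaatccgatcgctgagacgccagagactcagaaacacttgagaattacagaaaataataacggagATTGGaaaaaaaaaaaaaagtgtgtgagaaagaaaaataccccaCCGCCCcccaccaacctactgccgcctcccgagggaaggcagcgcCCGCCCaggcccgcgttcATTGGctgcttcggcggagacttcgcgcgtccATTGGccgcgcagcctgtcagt
Foxo3, chr10:42276756-42276945 (GRCm38.p6, minus strand): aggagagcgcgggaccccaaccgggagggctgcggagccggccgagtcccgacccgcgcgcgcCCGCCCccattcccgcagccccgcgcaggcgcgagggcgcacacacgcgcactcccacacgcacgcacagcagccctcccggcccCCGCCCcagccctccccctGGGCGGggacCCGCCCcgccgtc
In the 250 bases upstream of the RefSeq start, Foxo1 held 3 CCAAT matches and Foxo3 held 0, while 33.8% of all 32851 promoters held at least 1. Foxo1 held 2 and Foxo3 5 matches to GGGCGG, the GC box, which 32.7% of promoters held; 1 of the Foxo3 matches lies past the end of the printed stretch. No CCAAT match overlapped a GC box. The CArG box, the site that SRF binds, had 0 matches in either window against 1.47% of promoters, and the forkhead motif GTAAACA had 0 against 3.17%. The E-box CANNTG had 1 match in Foxo1 and 0 in Foxo3, against 66.2% of promoters. These counts describe the letters of the windows only.

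Library totals lay between 20901442 and 23543734 counts. Srf itself averaged 1128 CPM in SRF (678 to 1673) against 81.3 CPM in pMSCV (66.6 to 93.8), where CPM is a gene's count scaled to a common library size (TMM). In the fusion lines it averaged 192 CPM in SRF-ICA1L (121 to 279) and 125 in SRF-RELA (85.0 to 155). It averaged 87.1 CPM in SRF-FOXO1 (71.8 to 105) and 76.0 in SRF-PDGFRB (70.5 to 81.4). The ranges of SRF-RELA, SRF-FOXO1 and SRF-PDGFRB overlap that of pMSCV. How far reads of a fusion construct count towards mouse Srf was not tested. All 8 myoblast markers examined were in the table, and in pMSCV they summed to 1740 to 1920 CPM. In the other lines the sum was 380 to 491 CPM for SRF-FOXO1, 505 to 875 for SRF-RELA, 541 to 1196 for SRF-ICA1L, 862 to 1419 for SRF and 424 to 2288 for SRF-PDGFRB. Defining markers of blood (Ptprc), endothelial (Pecam1), epithelial (Epcam) and fat cells (Adipoq) were not in the table. The markers of those cells that were present summed at most to 7.62 CPM for macrophage and blood (Csf1r, Cd68; 2.28 to 7.62), 2.81 for endothelial (Cdh5, Tek; 0.0457 to 2.81) and 0.553 for epithelial cells (Krt8; 0 to 0.553). The adipocyte pair, Fabp4 and Cebpa, summed to 7.76 to 39.6 CPM. In bulk RNA, fewer cells of a type and less RNA per cell cannot be told apart.

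Levels were compared between members per kilobase of exon. Over all 17 libraries, Foxo4 averaged 6.57 ± 1.24 CPM per kb and Foxo3 5.99 ± 1.86 CPM per kb (SD, n = 17). Foxo1 averaged 2.89 ± 0.722 CPM per kb and Foxo6 0.985 ± 0.510 CPM per kb (SD, n = 17). The order Foxo4, Foxo3, Foxo1, Foxo6 held in 13 libraries, and in the other 4 Foxo3 lay above Foxo4. Foxo1 was the third and Foxo6 the weakest member in all 17 libraries. Foxo6 was also the member with the fewest reads, 14 to 133 a library, against 358 to 863 for Foxo1, 664 to 1562 for Foxo3 and 383 to 824 for Foxo4, so its values carry the largest counting error.

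**Figure D1:**
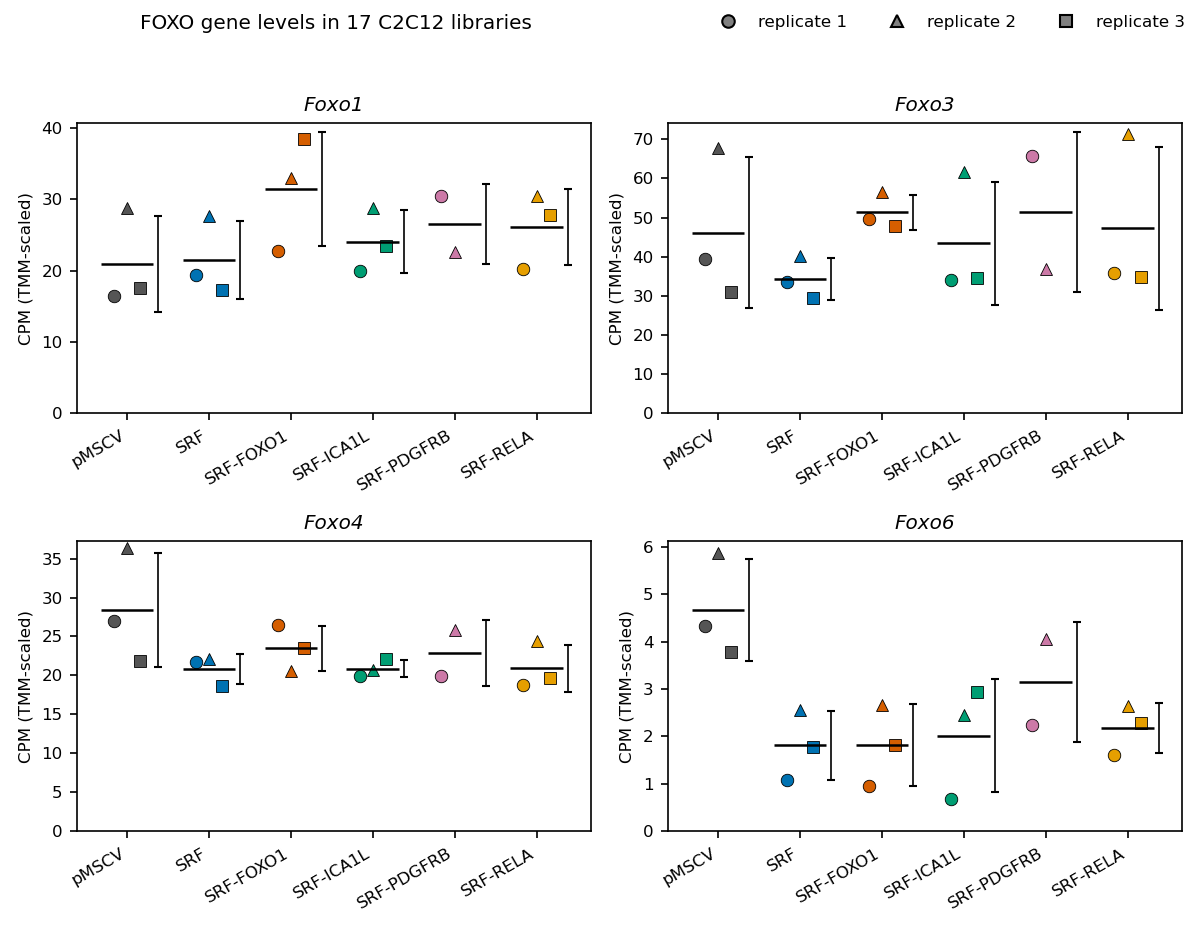
CPM (TMM-scaled, vertical axis from 0) of each FOXO gene in the 17 libraries by line; symbols give the replicate number, horizontal lines the group mean and bars 1 SD. The pMSCV libraries hold the highest Foxo6 values (3.79 to 5.86 CPM) except that 1 SRF-PDGFRB library (4.05 CPM) lies among them, and replicate 2 is the highest Foxo3 library in all 5 lines with 3 libraries.

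Foxo6 was lower than in pMSCV by 1.09 to 1.36 on the log2 scale in 4 lines, which is the largest difference of any member, yet none of its tests passed the adjusted threshold of 0.05 in the fit with line as the single term. In pMSCV it stood at 4.33, 5.86 and 3.79 CPM in replicates 1, 2 and 3. In SRF it stood at 1.09, 2.56 and 1.79 CPM, and in SRF-FOXO1 at 0.959, 2.67 and 1.83 CPM. In SRF-ICA1L it stood at 0.674, 2.46 and 2.93 CPM, in SRF-RELA at 1.62, 2.65 and 2.28 CPM, and in SRF-PDGFRB at 2.25 and 4.05 CPM in its 2 libraries. Every library of SRF-RELA, SRF-ICA1L, SRF-FOXO1 and SRF lay below every pMSCV library, while SRF-PDGFRB overlapped pMSCV through its replicate 2. Over the whole table, the share of genes lower without overlap was 11.6% for SRF-FOXO1, 5.91% for SRF-RELA, 5.54% for SRF-ICA1L and 5.15% for SRF, and 1.56% (235 genes) were lower in all 12 libraries of those lines at once.

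The fitted Foxo6 difference from pMSCV was -1.36 (SE 0.52, 95% interval -2.48 to -0.24, edgeR adjusted p = 0.990) for SRF. For SRF-FOXO1 it was -1.36 (SE 0.52, interval -2.47 to -0.24, adjusted p = 0.161) and for SRF-ICA1L -1.20 (SE 0.52, interval -2.31 to -0.09, adjusted p = 0.777). In SRF-RELA it was -1.09 (interval -2.20 to 0.01, adjusted p = 0.623) and in SRF-PDGFRB -0.56 (interval -1.80 to 0.67, adjusted p = 0.910). The first 3 intervals exclude 0 and the other 2 do not, and unadjusted p was under 0.05 in those first 3. Over the whole table, unadjusted edgeR p was under 0.05 for 3151 of 15062 genes in SRF-FOXO1, 938 in SRF-ICA1L and 503 in SRF. Among the lines with an SRF construct, Foxo6 differed from SRF by 0.80 (interval -0.42 to 2.01) in SRF-PDGFRB, 0.27 in SRF-RELA, 0.16 in SRF-ICA1L and 0.00 (interval -1.11 to 1.12) in SRF-FOXO1. The SRF-PDGFRB difference from pMSCV was -1.05 without its replicate 2 and -0.22 without its replicate 1. In decreasing order the Foxo6 means were pMSCV 4.66 ± 1.08, SRF-PDGFRB 3.15 ± 1.27, SRF-RELA 2.18 ± 0.523, SRF-ICA1L 2.02 ± 1.19, SRF-FOXO1 1.82 ± 0.857 and SRF 1.81 ± 0.735 CPM (SD, n = 3, or 2 for SRF-PDGFRB). No neighbours in that order differed by the test.

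Myoblast markers, taken as a sum, stood highest where Foxo6 did. The 3 pMSCV libraries and SRF-PDGFRB replicate 2, at 2288 CPM, had the 4 highest marker sums, and these were also the 4 highest Foxo6 libraries. SRF-PDGFRB replicate 1, whose markers summed to 424 CPM, had Foxo6 at 2.25 CPM. Within groups the order did not always carry over. In pMSCV and in SRF, replicate 3 had the highest marker sum (1920 and 1419 CPM) and replicate 2 the highest Foxo6, and in SRF-FOXO1 replicate 1 had the highest sum (491 CPM) and the lowest Foxo6. Single markers correlated with Foxo6 at r = 0.33 (Vcam1) to 0.62 (Itga7) over all libraries, and at -0.09 (Chrnd) to 0.54 (Vcam1) within groups. Unlike the sum, Vcam1 was not lower in SRF-FOXO1 (150 to 184 CPM) than in pMSCV (93.5 to 178 CPM). The part of the markers in the Foxo6 difference was not tested.

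**Figure D2:**
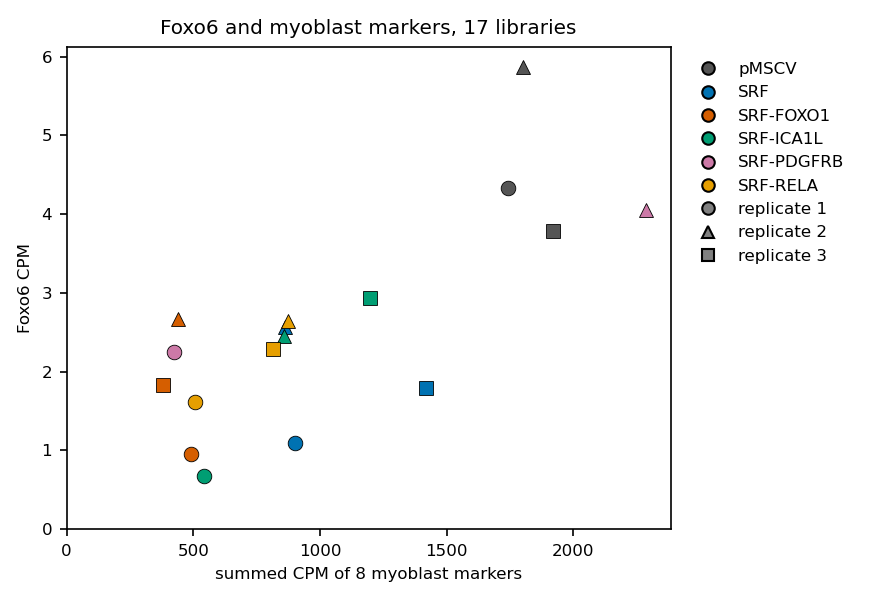
Foxo6 CPM (vertical axis) against the summed CPM of 8 myoblast markers (horizontal axis), 1 point a library, coloured by line and shaped by replicate number. The 4 libraries with marker sums of 1740 CPM or more have Foxo6 between 3.79 and 5.86 CPM, and the other 13 lie between 0.674 and 2.93 CPM.

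Foxo4, which is controlled by AKT like Foxo1 and Foxo3, was also lower than in pMSCV in every line, by 0.27 to 0.45 on the log2 scale, and passed no adjusted test. Without pMSCV replicate 2, its highest library, the differences shrank to between -0.23 (SRF) and -0.0558 (SRF-FOXO1). It stood at 27.0, 36.3 and 21.8 CPM in pMSCV and at 21.7, 22.1 and 18.7 CPM in SRF. In SRF-FOXO1 it stood at 26.4, 20.6 and 23.5 CPM, and in SRF-ICA1L at 19.9, 20.7 and 22.1 CPM. In SRF-PDGFRB it stood at 19.9 and 25.8 CPM, and in SRF-RELA at 18.8, 24.4 and 19.6 CPM. All 5 lines overlapped pMSCV, because pMSCV replicate 3 lay at 21.8 CPM. The fitted difference was -0.45 (SE 0.19, interval -0.86 to -0.04, edgeR adjusted p = 0.990) for SRF, -0.44 (interval -0.85 to -0.03, adjusted p = 0.777) for SRF-ICA1L and -0.44 (interval -0.85 to -0.03, adjusted p = 0.594) for SRF-RELA. It was -0.31 (interval -0.77 to 0.15) in SRF-PDGFRB and -0.27 (interval -0.68 to 0.14) in SRF-FOXO1. Against SRF the 4 fusion lines differed by 0.00 to 0.17. The group means ran from 28.4 ± 7.35 CPM in pMSCV through 23.5 ± 2.89 in SRF-FOXO1 and 22.9 ± 4.22 in SRF-PDGFRB to 20.9 ± 3.02 in SRF-RELA, 20.9 ± 1.13 in SRF-ICA1L and 20.8 ± 1.90 in SRF, with no neighbours that differed by the test.

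Foxo1, the partner named in SRF-FOXO1, was highest in that line, at 22.8, 33.0 and 38.5 CPM. It stood at 16.5, 28.7 and 17.5 CPM in pMSCV, at 19.4, 27.7 and 17.3 CPM in SRF, and at 19.9, 28.8 and 23.5 CPM in SRF-ICA1L. It stood at 30.4 and 22.6 CPM in SRF-PDGFRB and at 20.2, 30.4 and 27.7 CPM in SRF-RELA. SRF-FOXO1 replicate 1 lay below the replicate 2 library of pMSCV and of SRF, so the groups overlapped. The difference of SRF-FOXO1 from pMSCV was 0.59 (SE 0.28, interval -0.01 to 1.18, edgeR adjusted p = 0.243) and from SRF 0.55 (SE 0.28, interval -0.04 to 1.14, adjusted p = 0.286). The other lines differed from pMSCV by 0.04 (SRF), 0.20 (SRF-ICA1L), 0.34 (SRF-PDGFRB) and 0.32 (SRF-RELA), each interval including 0. Without pMSCV replicate 2 these were 0.33, 0.50, 0.63 and 0.62, and that of SRF-FOXO1 was 0.88. Without SRF-PDGFRB replicate 1 that of SRF-PDGFRB was 0.0957, and without SRF-ICA1L replicate 2 that of SRF-ICA1L was 0.0501. The labels give neither the species nor the portion of FOXO1 in the construct, so how far its reads count towards mouse Foxo1 was not tested. The means ran from 31.4 ± 7.98 CPM in SRF-FOXO1 to 26.5 ± 5.55 in SRF-PDGFRB, 26.1 ± 5.27 in SRF-RELA, 24.1 ± 4.46 in SRF-ICA1L, 21.5 ± 5.48 in SRF and 20.9 ± 6.79 in pMSCV, and neighbours did not differ by the test.

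Foxo3, which in muscle drives the atrophy and autophagy genes, was lowest in SRF, at 33.5, 40.1 and 29.5 CPM. It stood at 39.5, 67.8 and 31.0 CPM in pMSCV, at 49.7, 56.5 and 47.9 CPM in SRF-FOXO1, and at 34.1, 61.6 and 34.6 CPM in SRF-ICA1L. It stood at 65.8 and 36.9 CPM in SRF-PDGFRB and at 35.8, 71.3 and 34.8 CPM in SRF-RELA. SRF-FOXO1 and SRF did not overlap, which was so, in the same direction, for 17.1% of all genes. Their difference was 0.58 (SE 0.35, interval -0.18 to 1.33, edgeR adjusted p = 0.357). From pMSCV, Foxo3 differed by -0.42 (interval -1.18 to 0.33) in SRF and by -0.09 to 0.16 in the fusion lines. Without pMSCV replicate 2 the SRF difference was -0.0421 and those of the fusion lines were 0.30 to 0.54. In SRF-PDGFRB that difference was 0.51 without replicate 2 and -0.34 without replicate 1. The means were 51.4 ± 20.5 CPM in SRF-PDGFRB, 51.3 ± 4.52 in SRF-FOXO1, 47.3 ± 20.8 in SRF-RELA, 46.1 ± 19.3 in pMSCV, 43.4 ± 15.7 in SRF-ICA1L and 34.4 ± 5.35 in SRF, and neighbours did not differ by the test. The SDs of pMSCV, SRF-ICA1L and SRF-RELA rest on a single high library each, replicate 2.

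**Figure D3:**
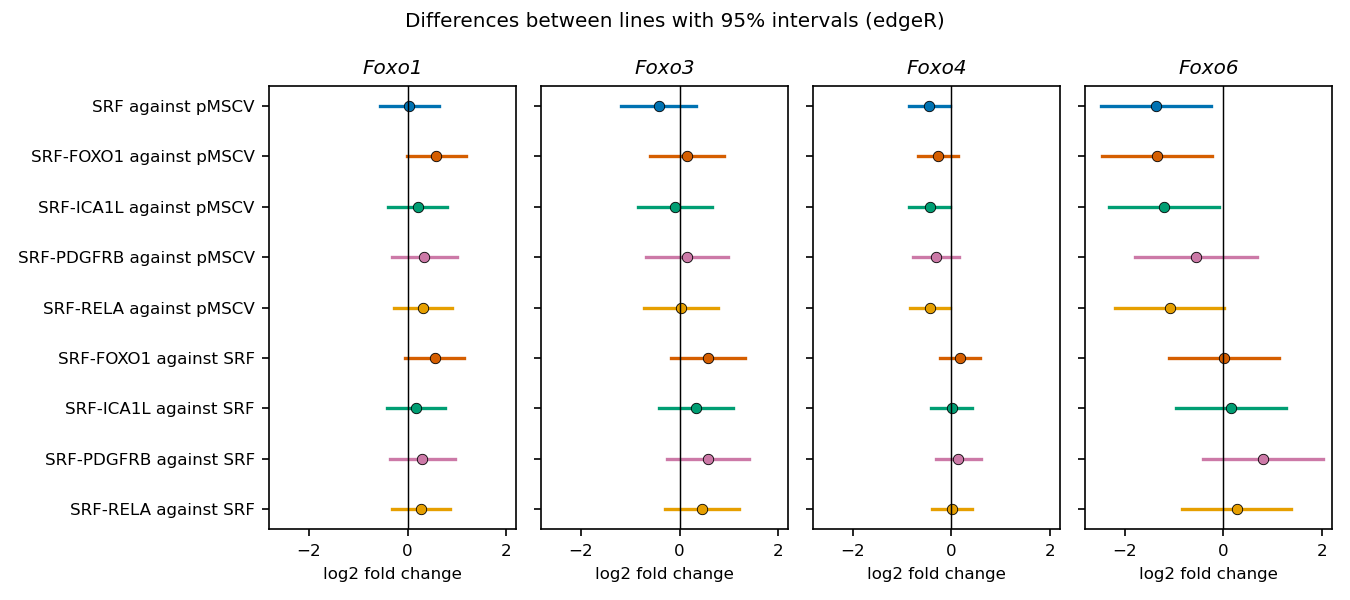
Log2 fold change (horizontal axis) of each FOXO gene in each line against pMSCV and in each fusion line against SRF, with 95% intervals (edgeR). The intervals of Foxo6 for SRF-ICA1L, SRF-FOXO1 and SRF, and of Foxo4 for SRF-RELA, SRF-ICA1L and SRF, all against pMSCV, exclude 0, and no adjusted p was under 0.05.

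Over the 15 comparisons between lines, 0 of 60 tests of a FOXO gene passed (edgeR, Benjamini-Hochberg adjusted over 15062 genes). DESeq2, run on the 9 comparisons with pMSCV or SRF, called 0. An unadjusted edgeR p under 0.05 was seen in 6 of the 60 tests, all of Foxo4 or Foxo6 against pMSCV. In those comparisons it was also seen for 3151 of 15062 genes in SRF-FOXO1, 1212 in SRF-RELA, 938 in SRF-ICA1L and 503 in SRF. Few genes of any kind passed the adjusted threshold. Against pMSCV, the share of all genes that passed was 0.71% for SRF-FOXO1, 0.0199% for SRF-PDGFRB, 0.00664% for SRF, and 0% for SRF-ICA1L and for SRF-RELA. Against SRF the share was 0.0531% for SRF-PDGFRB, 0.00664% for SRF-FOXO1 and for SRF-RELA, and 0% for SRF-ICA1L. Between fusion lines it was 0% for SRF-ICA1L against SRF-FOXO1, 0.0266% for SRF-PDGFRB against SRF-FOXO1 and 0% for SRF-RELA against SRF-FOXO1. It was 0.0332% for SRF-PDGFRB against SRF-ICA1L, 0% for SRF-RELA against SRF-ICA1L and 0.00664% for SRF-RELA against SRF-PDGFRB. Between fusion lines the largest FOXO difference was that of Foxo6 in SRF-PDGFRB over SRF-FOXO1, 0.79 (interval -0.43 to 2.01). A single test over the 6 groups gave adjusted p = 0.675 for Foxo6, 0.819 for Foxo4, 0.920 for Foxo1 and 1.0 for Foxo3, and called 0.0797% of all genes (12 genes). The comparisons with pMSCV share the pMSCV libraries, so the like differences of Foxo6 and Foxo4 across lines are not independent of each other.

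In the 12 libraries of pMSCV, SRF, SRF-RELA and SRF-ICA1L, replicate number went with Foxo1 and Foxo3 more closely than the line did. Within these groups the same-numbered libraries deviated together over all genes, although the labels do not say what a number marks. The groups were chosen by that likeness in the same data, so a term for the number was bound to pass for many genes. The choice also left out SRF-FOXO1, the line with the highest Foxo1. In these 12 libraries, a term for replicate number passed for Foxo3 (edgeR adjusted p = 0.00126) and Foxo1 (adjusted p = 0.00633), but not for Foxo6 (adjusted p = 0.0573) or Foxo4 (adjusted p = 0.156). Of all genes tested, 52% passed, so this is not particular to the FOXO genes. Replicate 2 was above replicate 1 by 0.73 on the log2 scale for Foxo3, 0.61 for Foxo1, 0.95 for Foxo6 and 0.23 for Foxo4. Replicate 3 differed from replicate 1 by -0.13 for Foxo3, 0.17 for Foxo1, 0.71 for Foxo6 and -0.06 for Foxo4. Replicate number took 77.2% of the variance of log2 CPM for Foxo3 and 66.9% for Foxo1, and the line 12.7% and 19.1%. For Foxo6 and Foxo4 the line took more, 52.5% and 49.2%, than the number, 29.6% and 24.4%; over all genes the medians were 19.5% for the line and 49.6% for the number. With all 17 libraries, that is with SRF-FOXO1 and SRF-PDGFRB added, the term called 0 members (adjusted p = 0.116 for Foxo3 and 0.178 for Foxo1).

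**Figure D4:**
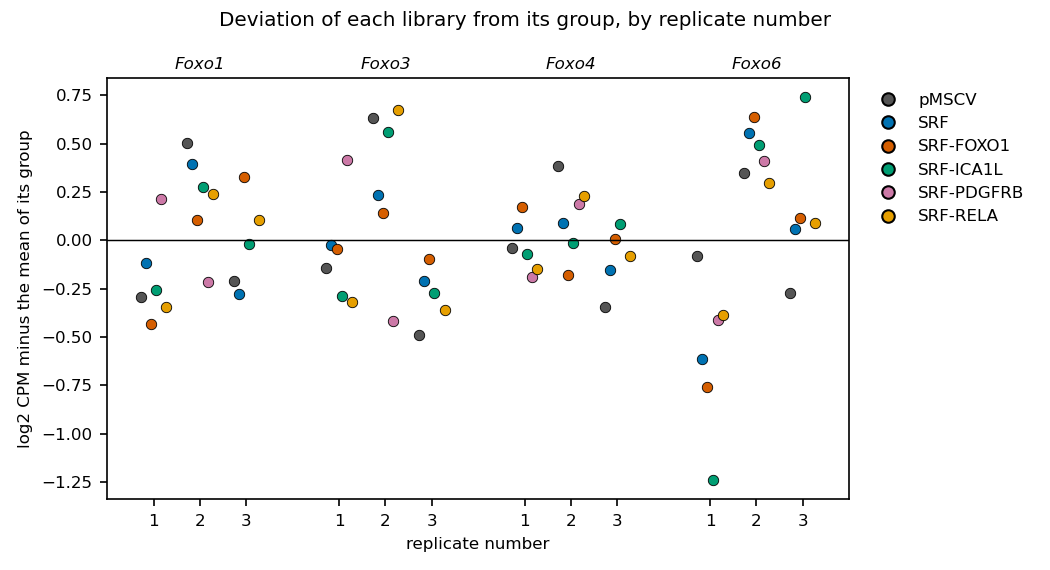
Deviation of log2 CPM from the mean of its group (vertical axis) for each FOXO gene by replicate number (horizontal axis), 1 point a library, coloured by line. Replicate 2 lies above 0 for Foxo1 and Foxo3 in all 5 lines with 3 libraries, and in SRF-PDGFRB it is replicate 1 that lies above 0.

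With the replicate number as a block in those 12 libraries, the intervals narrowed and 0 members passed. Foxo6 was then lower than in pMSCV by -1.44 (SE 0.35, edgeR adjusted p = 0.170) in SRF, -1.32 (SE 0.35, adjusted p = 0.0750) in SRF-ICA1L and -1.12 (SE 0.35, adjusted p = 0.0838) in SRF-RELA. The blocked fit called 6.48% of all genes for SRF-RELA, 2.99% for SRF-ICA1L and 0.0137% for SRF against pMSCV, and 0.656% for SRF-RELA and 0.0956% for SRF-ICA1L against SRF. It called 0% for SRF-RELA against SRF-ICA1L. SRF-FOXO1 paired by number with SRF alone. A blocked fit of those 6 libraries gave Foxo3 0.60 (edgeR adjusted p = 0.0556) and Foxo1 0.56 (edgeR adjusted p = 0.150), where 1.57% of all genes were called. For both blocked fits the groups were chosen by the likeness of same-numbered libraries in these data, a choice that favours narrower intervals. The fit of 6 libraries was also added after the data were seen.

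Foxo1 and Foxo3 levels moved together across libraries (Pearson r = 0.72 over 17 libraries, 0.72 within groups, Spearman rho = 0.76), in libraries that share lines and replicate numbers. Foxo4 and Foxo6 gave r = 0.51 over all libraries and 0.25 within groups. The genes most like Foxo3 by r of log2 CPM were Dcaf5 (0.98), Foxn3 (0.97), another forkhead gene, and Phf21a (0.97), out of 9105 genes with a mean of at least 10 CPM. Foxn3 stood at 52.5 CPM in pMSCV replicate 2 against 29.8 and 17.6 CPM in replicates 1 and 3, the same high library as for Foxo3. Those most like Foxo1 were Tmx4 (0.92), Cx3cl1 (0.91) and Gm2a (0.90). Cx3cl1, a chemokine, ran from 19.8 to 52.2 CPM in pMSCV and from 45.8 to 151 CPM in SRF-FOXO1. Those most like Foxo4 were Usp11 (0.89), Glb1 (0.88) and Ift122 (0.87), and those most like Foxo6 were Bcr (0.86), Tmem94 (0.82) and Cog4 (0.82).

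The insulin, PI3K and AKT pathway that controls FOXO proteins showed 0 called genes of 25 measured (26 listed) in the edgeR fit without a block, in all 15 comparisons between lines. Against pMSCV its median difference was 0.18 for SRF-PDGFRB, 0.13 for SRF-FOXO1, 0.08 for SRF-ICA1L, 0.07 for SRF and 0.03 for SRF-RELA. The medians of all genes in the same comparisons lay between -0.02 (SRF) and 0.008 (SRF-PDGFRB). Insr and Irs2 are in this list and also in that of the FOXO target genes below. Pik3r1, a regulatory subunit of PI3K, averaged 93.5 ± 42.9 CPM in pMSCV and 254 ± 84.2 CPM in SRF-FOXO1 (SD, n = 3), a difference of 1.44 (edgeR adjusted p = 0.109). In the same order, Akt1 averaged 366 ± 44.0 and 374 ± 48.3 CPM, Akt2 126 ± 19.5 and 138 ± 21.2 CPM, and Igf1r, the IGF receptor, 71.6 ± 9.52 and 53.9 ± 9.10 CPM. DESeq2 called 4 of the 25 higher in SRF-FOXO1 than in pMSCV, among them Pik3r1 (1.45), Pik3r3 (1.48) and the kinase Sgk3 (2.39), in a test that called 9.07% of all genes. Irs2, an insulin receptor substrate, and the kinase Sgk1 differed by replicate number, with replicate 3 lower than replicate 1 by -1.84 and -1.85; 15 of the 25 (60%) passed that term, near the 52% of all genes.

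Of 32 regulators of FOXO proteins, 0 were called in any comparison by edgeR without a block. The deacetylase Sirt1 averaged 48.2 ± 8.59 CPM in pMSCV and 49.5 ± 11.5 CPM in SRF-FOXO1, and the acetyltransferase Ep300 134 ± 37.3 and 166 ± 20.0 CPM (SD, n = 3). The ubiquitin ligase genes Skp2 and Mdm2 averaged 55.8 ± 16.6 and 44.8 ± 3.05 CPM, and 192 ± 45.4 and 174 ± 113 CPM. DESeq2 called Prkaa2, a catalytic AMPK subunit, higher (1.93) and Prmt1, an arginine methyltransferase, lower (-0.66) in SRF-FOXO1 than in pMSCV. That test called 9.07% of all genes. The blocked fit called Prkaa2 higher in SRF-ICA1L (1.34) and SRF-RELA (1.48), where 2.99% and 6.48% of all genes were called. The replicate-number term called 21 of the 32 (65.6%, against 52% of all genes).

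Of 33 FOXO target genes, 31 were measured and 0 were called in any comparison by edgeR without a block. In SRF their median lay 0.28 below pMSCV (-0.28, 8 of 31 above 0), where the median of all genes was -0.02. Their median against pMSCV was 0.09 for SRF-PDGFRB, -0.01 for SRF-FOXO1 and -0.08 for SRF-ICA1L and SRF-RELA. Against SRF the median was 0.37 for SRF-PDGFRB, 0.34 for SRF-FOXO1 (21 of 31 above 0) and 0.13 for SRF-ICA1L and SRF-RELA. The medians of all genes against SRF lay between -0.005 (SRF-RELA) and 0.03 (SRF-PDGFRB), with 7638 of 15062 above 0 for SRF-FOXO1. These 4 comparisons share the SRF libraries. Txnip, an inhibitor of thioredoxin, stood at 12.2 ± 5.39 CPM in SRF, 40.8 ± 8.06 CPM in pMSCV and 93.3 ± 94.0 CPM in SRF-FOXO1 (SD, n = 3). Fbxo32, the muscle ubiquitin ligase atrogin, stood at 21.9 ± 3.17 CPM in SRF, 43.2 ± 26.8 in pMSCV and 39.3 ± 6.92 in SRF-FOXO1. Ccng2, a cyclin of cell cycle arrest, stood at 15.6 ± 2.43, 22.8 ± 9.16 and 34.7 ± 12.3 CPM in the same order, and Sesn3, a sestrin, at 21.8 ± 6.94, 23.0 ± 4.22 and 62.0 ± 25.7 CPM. Bcl6 stood at 14.7 ± 4.02, 23.1 ± 7.21 and 22.9 ± 5.44 CPM, Sesn1 at 33.5 ± 5.55, 43.1 ± 24.6 and 69.5 ± 26.5 CPM, and Cdkn1b, a cyclin kinase inhibitor, at 60.0 ± 7.10, 71.0 ± 13.4 and 95 ± 43.5 CPM. The atrophy ligase Trim63 and the factor Klf15 were near the floor of detection, with group means of at most 0.746 and 0.581 CPM in these 3 lines. Not all targets were higher in SRF-FOXO1 than in SRF. In the blocked fit of those lines alone, 21 of 29 measured targets lay above 0. Eif4ebp1 (-0.77) and Depp1 (-1.28) were among those below, and Pdk4 differed by 0.21.

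By DESeq2, the FOXO targets Rbl2 (1.07) and Sesn3 (1.44) were higher and Eif4ebp1 (-1.13) and Depp1 (-3.82) were lower in SRF-FOXO1 than in pMSCV. That test called 9.07% of all genes, and the pMSCV libraries of Depp1 ranged from 0.514 to 11.9 CPM. Against SRF, DESeq2 called Rbl2 (0.96), Ccng2 (1.16), Sesn3 (1.52), Txnip (2.95) and, of the pathway, Pik3r1 (1.48) higher, in a test that called 4.3% of all genes. The blocked fit called Ctsl, a lysosomal protease, and Eif4ebp1 lower for SRF-ICA1L (-0.53 and -0.59) and SRF-RELA (-0.66 and -0.58). It called Pdk4 (0.82), Rbl2 (0.60) and the pathway gene Sgk3 (1.78) higher in SRF-RELA. Of all genes it called 2.99% for SRF-ICA1L and 6.48% for SRF-RELA. The replicate-number term called 25 of the 30 targets tested (83.3%, against 52% of all genes), among them Pdk4, an inhibitor of glucose oxidation, whose replicate 3 lay 2.49 above replicate 1.

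Of 36 other forkhead genes, 22 were in the table and 0 were called by edgeR without a block. Foxk1 averaged 48.4 ± 2.95 CPM in pMSCV and 50.9 ± 2.24 CPM in SRF-FOXO1, Foxk2 177 ± 61.8 and 145 ± 5.13 CPM, and the cell cycle factor Foxm1 157 ± 85.2 and 125 ± 15.7 CPM (SD, n = 3). Foxp1 averaged 79.9 ± 4.14 CPM in pMSCV, 86.9 ± 6.69 CPM in SRF-FOXO1 and 108 ± 17.1 CPM in SRF-RELA, and the blocked fit called it higher in SRF-RELA (0.45). DESeq2 called Foxa2 (3.05), Foxf2 (1.43) and Foxq1 (3.10) higher in SRF-FOXO1 than in pMSCV (9.07% of all genes called), and Foxq1 (2.28) higher than in SRF (4.3%). The blocked fit called Foxf2 and Foxq1 higher for SRF-ICA1L (0.84 and 1.70) and SRF-RELA (1.14 and 2.49), and Foxa2 in SRF-RELA (2.40). Of all genes it called 2.99% for SRF-ICA1L and 6.48% for SRF-RELA. With SRF-FOXO1 and SRF alone and blocked, Foxf2 (1.24) and Foxn3 (0.94) were called higher in SRF-FOXO1 (1.57% of all genes). The replicate term called 13 of the 21 forkhead genes tested (61.9%, against 52% of all genes).

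Of the 8 myoblast markers, edgeR called Itga7, an integrin subunit, lower in SRF-FOXO1 than in pMSCV (-2.06, adjusted p = 0.0336), where 0.71% of all genes were called. DESeq2 called 6 of the 8 lower in SRF-FOXO1 than in pMSCV (9.07% of all genes), 2 lower than in SRF (4.3%) and 2 lower in SRF-RELA than in pMSCV (0.77%). The blocked fit of SRF-FOXO1 and SRF called Cdh15 lower (-2.92, edgeR adjusted p = 0.0364), where 1.57% of all genes were called. Against pMSCV, the blocked fit of 12 libraries called 6 lower in SRF-ICA1L (2.99% of all genes) and 7 in SRF-RELA (6.48%). It also called Chrnd lower in SRF (-1.76), where 0.0137% of all genes were called. Cdh15 (-1.31) and Chrnd (-1.10) were called lower in SRF-RELA than in SRF (0.656% of all genes). These marker changes stand beside the Foxo6 and target-gene values of the same lines, and their part in them was not tested.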

How the data were processed

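Polyadenylated RNA was sequenced with a stranded kit on an Illumina NovaSeq, per the labels' protocols. The values used were raw counts per gene, as deposited by the authors. The submitters' processing notes name GRCm38, FastQC 0.11.8, Trimmomatic 0.39, HISAT2 2.12.1, featureCounts and Subread 2.0.0; settings, annotation and strand use in counting are not given in the sources used here. Coordinates, exon lengths and promoters come from GENCODE M21 and RefSeq. Foxo4 and Foxo6 promoters were not used here.

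Counts were scaled by TMM and tested with edgeR 4.0.16 (limma 3.58.1, R 4.3.3) by the quasi-likelihood test with robust dispersions, all 17 libraries in 1 fit with a term for line. P-values were adjusted by Benjamini-Hochberg over 15062 genes, with 0.05 as the threshold for a call. Of 1531 genes without a symbol, 1519 received one by identifier. Intervals are 95%, from SE = |log2 fold change|/√F. Log2 CPM used a prior count of 2. The biological coefficient of variation was 36.5%. The edgeR fit with line as the single term was run on simulated counts with known changes in SRF-FOXO1. Those counts had less spread than these data and no effect of replicate number.

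Groups and replicate numbers came from the titles. In the pMSCV, SRF, SRF-RELA and SRF-ICA1L groups, deviations from group means correlated at 0.392 to 0.789 for same-numbered libraries and -0.585 to 0.114 for others; the threshold for pairing was 0.1. SRF-FOXO1 paired with SRF (0.220, 0.253 and 0.330). The pairing comes from these correlations. Alternatives were DESeq2 1.42.0, other scaling, filters, sample sets, the replicate block and leaving out each library.

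The members and lists were chosen with earlier results of these data known. The genes named are the 4 members, a fixed set from the 4 FOXO-related lists, list genes called in any fit, and the 3 genes most like each member; Foxn3 was also named for its call in a fit added after the data were seen. A result of the pathway list is not reported here.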

Additional observations from a re-analysis of the deposited data

How the results depend on the processing

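Of the log2 fold changes recomputed under the alternatives, 441 kept their direction and their side of the threshold, 26 changed sign and 1 passed the threshold that it had missed. For comparisons between lines, the alternative without a filter on low counts was the same fit as the main one, since the filter removed no gene. Its values could not differ and are among the 441. Among counts of called FOXO genes, 129 stayed and 2 moved, where a change from 2 called members to 3 was held as staying. With a replicate block over all 17 libraries, where the numbers of SRF-FOXO1 and pMSCV do not pair, 1 FOXO gene was called in SRF-FOXO1 against pMSCV in place of 0: Foxo6, at -1.48 (edgeR adjusted p = 0.0350; 0.035 to 0.380 over its alternatives). Foxo6 in SRF-FOXO1 against SRF, 0.00 as reported, was -0.0179 with that block and -0.0048 with the block in SRF-FOXO1 and SRF alone. Otherwise the replicate block changed no call of a FOXO gene. The replicate-number term called 0 members with all 17 libraries; leaving out pMSCV it called 3, as DESeq2 did, the third being Foxo6 (adjusted p = 0.0334 and 0.0314).

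The other changes of sign came from leaving out 1 library, and all concern differences whose interval includes 0. Against pMSCV the ranges were -0.19 to 0.33 for Foxo1 in SRF, and for Foxo3 -0.0636 to 0.54 in SRF-FOXO1, -0.43 to 0.30 in SRF-ICA1L, -0.34 to 0.53 in SRF-PDGFRB and -0.39 to 0.43 in SRF-RELA. Against SRF they were -0.0014 to 0.49 for Foxo3 in SRF-ICA1L, -0.0696 to 0.0495 for Foxo4 in SRF-ICA1L, -0.0672 to 0.30 in SRF-PDGFRB and -0.12 to 0.0899 in SRF-RELA. For Foxo6 against SRF they were -0.38 to 0.34 in SRF-FOXO1 and -0.21 to 0.57 in SRF-ICA1L. With no change of sign, leaving out 1 library gave, against pMSCV, 0.0501 to 0.50 (SRF-ICA1L), 0.0957 to 0.63 (SRF-PDGFRB) and 0.17 to 0.62 (SRF-RELA) for Foxo1, and -0.64 to -0.0421 (SRF) for Foxo3. The sign of the pMSCV comparisons of Foxo6 held in every such fit, between -1.74 and -0.22 over the 5 lines. The cause was not tested. With 14 to 133 counts a library, Foxo6 is the member whose precision depth limits most.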
